A study of Mus musculus with 9 samples.

Results

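The genes followed here are 9 mouse genes of retinoid (vitamin A) handling, Rbp2, Lrat, Bco1, Isx, Rdh7, Dhrs3, Adh1, Aldh1a1 and Aldh1a3, in intestinal epithelial cells (IECs) after activation of natural killer T (NKT) cells in vivo. They were chosen by name, as the rows of the count table whose Ensembl identifier carries 1 of these symbols, and they are 9 of 29288 genes in the table. All 9 passed the filter on low counts, which kept 18933 genes.

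NKT cells are T cells that recognise lipids presented by CD1d, and α-galactosylceramide (αGalCer) is the glycolipid most used to activate them. RNA was sequenced from IECs of adult female wild-type C57BL/6J mice, 3 injected intraperitoneally with phosphate-buffered saline and sampled at 18 h (control), 3 injected with 2 µg of αGalCer and sampled at 18 h (18h-αGal) and 3 injected with the same dose and sampled at 72 h (72h-αGal). Crypt cells of the proximal small intestine were gated as live EpCAM+ Ter119- CD31- CD45- cells, and each library came from 1 mouse. No control was sampled at 72 h, so the effect of αGalCer and that of the time of sampling cannot be told apart in that group. The libraries held between 8887861 (control replicate 3) and 32722293 counts (control replicate 1), and a floor of 3 counts corresponded to 1.76 to 7.13 normalised counts, depending on the library. The epithelial genes Epcam, Cdh1 and Krt8 were abundant in all 9 libraries, with Epcam between 16280 and 22720 normalised counts. Although the cells were labelled as crypt cells, the 20 enterocyte markers examined were all expressed, and their summed level ranged from 124700 to 471300 normalised counts. The 8 interferon gamma response genes examined were all called higher at 18 h, and their summed level was 3818 to 7227 normalised counts in control, 26490 to 29160 in 18h-αGal and 3630 to 5467 in 72h-αGal.

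The small intestine takes up vitamin A as retinol or as plant carotenoids. Absorbed retinol is bound by a cellular carrier and mostly converted to retinyl esters for export in chylomicrons, while carotenoids are cleaved to retinal. Retinol and retinal are interconverted by dehydrogenases and reductases, and retinal is oxidised irreversibly to retinoic acid, the ligand of the nuclear retinoic acid receptors, which instructs gut-homing lymphocytes as well as the epithelium itself. Retinoic acid in turn induces ISX, a homeodomain repressor that limits further uptake and cleavage of carotenoids.

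Among these genes, Lrat and Adh1 fell to about the same extent at 18 h after αGalCer and were higher again at 72 h than at 18 h. Isx was lower at 72 h than at 18 h. Aldh1a1 and Rdh7 had lower means in both αGalCer groups than in control, but did not pass the test. Rbp2, Dhrs3, Bco1 and Aldh1a3 were not called in any comparison. Values are given as normalised counts, which are read counts divided by 1 factor per library, and as mean ± SD of 3 mice. Differences are log2 fold changes ± SE from the quasi-likelihood test of edgeR, with Benjamini-Hochberg adjusted p over all genes tested, and a gene was called at an adjusted p under 0.05.

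**Figure D1:**
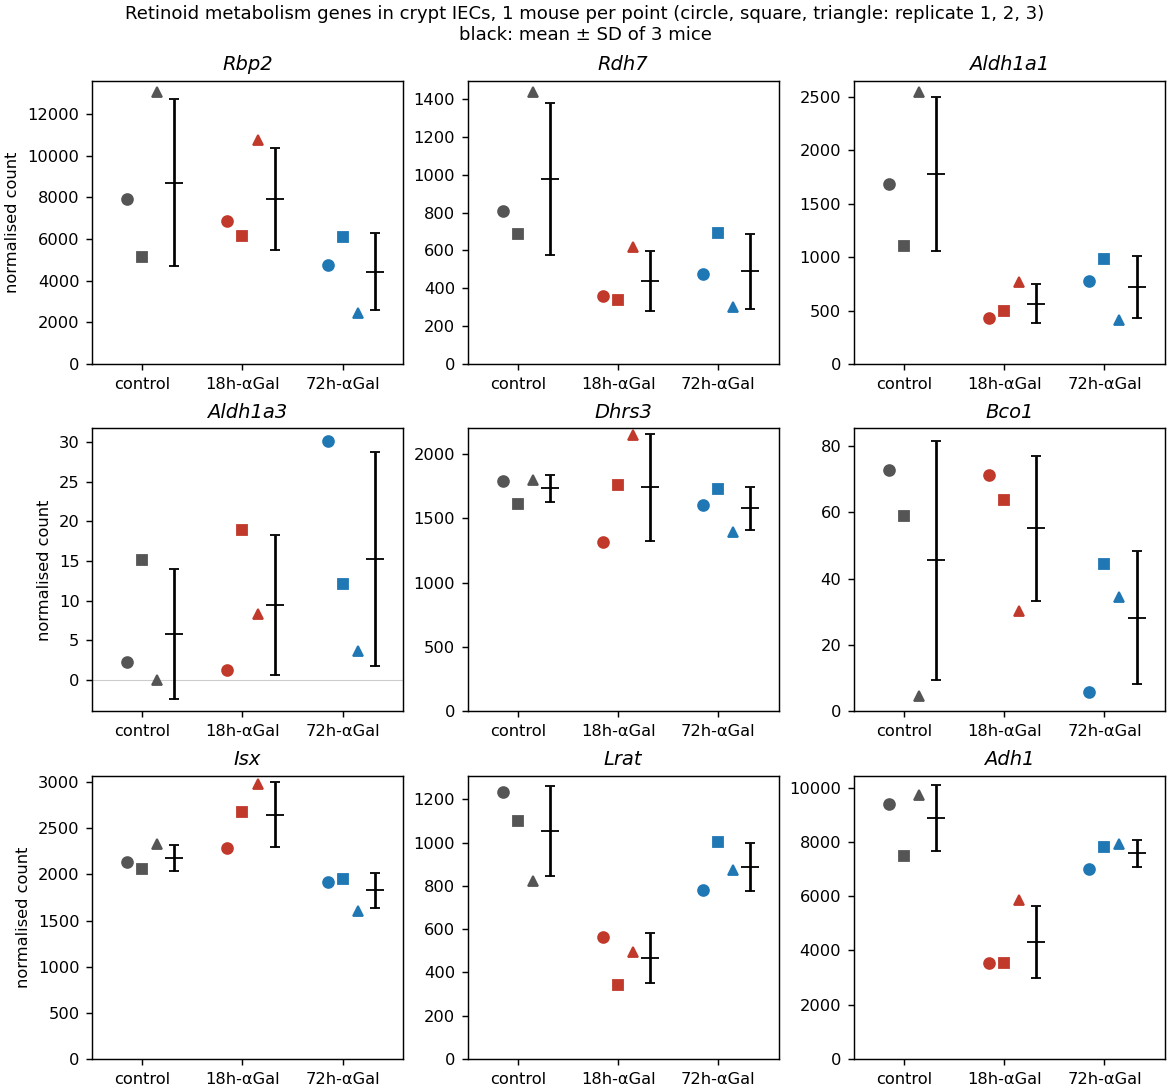
Normalised counts (vertical axes, linear scale, a different range for each gene) of the 9 retinoid metabolism genes in control, 18h-αGal and 72h-αGal mice. Each symbol is 1 mouse (circle, square and triangle for replicates 1, 2 and 3), and black bars show the mean ± SD of 3 mice. Lrat and Adh1 in 18h-αGal lie below all control and all 72h-αGal mice, with Lrat between 342 and 565 in 18h-αGal against 825 to 1236 in control.

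Lrat encodes lecithin:retinol acyltransferase, which makes retinyl esters from retinol. The gene (ENSMUSG00000028003) lies on the minus strand of chromosome 3, at 82799886 to 82811288 of GRCm39, and its exons overlap those of the antisense gene Rbm46os. The window from 250 bases before to 50 bases after its start (RefSeq, GRCm38.p6, chr3:82903925-82904224, minus strand) is shown because Lrat and the other called gene, Adh1, moved together, and it contained 60.7% G and C and 21 CpG dinucleotides, where the medians over 32851 such windows of all genes were 52.7% and 7.
Lrat: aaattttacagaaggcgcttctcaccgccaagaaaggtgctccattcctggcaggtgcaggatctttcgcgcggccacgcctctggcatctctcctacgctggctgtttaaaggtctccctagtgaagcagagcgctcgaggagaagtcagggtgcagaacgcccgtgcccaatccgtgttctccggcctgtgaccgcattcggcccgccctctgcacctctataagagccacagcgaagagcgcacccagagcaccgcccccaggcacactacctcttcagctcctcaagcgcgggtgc

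Lrat had 1236, 1101 and 825 normalised counts in control replicates 1, 2 and 3. The 18h-αGal mice had 565, 342.3 and 492.6, and the 72h-αGal mice had 780.7, 1005 and 875. All 18h-αGal mice lay below all mice of both other groups, while control and 72h-αGal overlapped. The mean fell from 1054 ± 209.4 in control to 466.6 ± 113.6 at 18 h, a decrease of the fitted level to 0.444 of control (log2 fold change -1.17 ± 0.20, adjusted p = 0.00398). At 72 h the mean was 886.7 ± 112.4, and Lrat was 1.91-fold higher than at 18 h (log2 fold change 0.93 ± 0.20, adjusted p = 0.00943). Against control, the 72h-αGal difference did not pass the test (-0.24 ± 0.20, adjusted p = 0.912).

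Adh1 encodes the class I alcohol dehydrogenase, which oxidises ethanol and retinol. The gene (ENSMUSG00000074207) is also on chromosome 3, on the plus strand at 137966752 to 137996462, and overlaps the antisense gene Gm16559. Its promoter window (GRCm38.p6, chr3:138277335-138277634, plus strand) held 45.3% G and C and 6 CpG dinucleotides, below the medians of all windows where that of Lrat was above them.
Adh1: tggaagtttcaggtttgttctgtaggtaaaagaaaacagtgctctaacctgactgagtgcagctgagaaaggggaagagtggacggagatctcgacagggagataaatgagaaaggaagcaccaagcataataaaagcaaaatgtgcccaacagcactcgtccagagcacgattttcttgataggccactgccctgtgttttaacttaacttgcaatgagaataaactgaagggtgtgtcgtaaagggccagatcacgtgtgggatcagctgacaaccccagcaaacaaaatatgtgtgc

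Adh1 had 9398, 7491 and 9726 normalised counts in the control mice. The 18h-αGal mice had 3547, 3518 and 5850.2, and the 72h-αGal mice had 7013, 7823 and 7910.0. As for Lrat, every 18h-αGal mouse was below every mouse of the other groups, and control and 72h-αGal overlapped. The fitted level fell by 51.3% at 18 h (log2 fold change -1.04 ± 0.17, adjusted p = 0.00424), with means of 8872 ± 1207 in control and 4305 ± 1338 in 18h-αGal. It was 1.77-fold higher at 72 h than at 18 h (0.83 ± 0.17, adjusted p = 0.00939), with a mean of 7582 ± 494.9, and was not called between 72h-αGal and control (-0.21 ± 0.17, adjusted p = 0.911). The calls of Lrat and Adh1 at 18 h against control, and at 72 h against 18 h, were made under all 20 alternative settings run, which include leaving out each mouse in turn.

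Neither window held any of the letter patterns searched on both strands, which were TTCNNNGAA (the pattern of gamma-activated sites), AGGTCA (a nuclear receptor half-site), TTTATG (a pattern bound by CDX proteins) and TATAAA. Promoter windows were found for 8 of the 9 genes, 12 windows in all, since several genes have more than 1 start site. TTCNNNGAA occurred in 0 of these 12 windows and in 8.3% of all windows of this length. AGGTCA occurred in 3 of the 12 (Rbp2, Bco1 and 1 window of Rdh7) and in 16.3% of all windows. TTTATG occurred in 2 (Bco1 and the same window of Rdh7) and in 11.9% of all, and TATAAA in 2 (Rbp2 and Bco1) and in 13.6% of all.

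Markers of other cells were examined beside Lrat and Adh1. The 12 secretory cell markers summed to 246000 to 273700 normalised counts in control, 158500 to 366900 in 18h-αGal and 243000 to 384400 in 72h-αGal. At 18 h 2 of them, Chga and Chgb, were called higher and 0 lower, beside 3.27% and 2.69% of all genes. Against control at 72 h, 3 were called lower (Chga, Chgb and Tph1), beside 0.0264% of all genes. The part of secretory cells was not tested. The 10 crypt stem and cycling markers summed to 57040 to 105000 normalised counts in control, 32240 to 66690 in 18h-αGal and 76800 to 108000 in 72h-αGal. In sum they overlapped between control and 18h-αGal, and not between the αGalCer groups. Their median log2 fold change was -0.68 at 18 h against control and 0.73 at 72 h against 18 h. At 18 h 0 of the 10 were called by edgeR and 4 had an unadjusted p under 0.05, beside 3947 of all 18933 genes tested. Of these 4, 2 were lower (Axin2 and Slc12a2) and 2 higher (the cycling genes Mki67 and Top2a). Axin2, a Wnt target gene, was not called at 18 h (-1.33, adjusted p = 0.0618) and was called higher at 72 h than at 18 h (1.64, adjusted p = 0.0218). Axin2, Slc12a2 and the stem cell gene Olfm4 did not overlap between control and 18h-αGal, with lower values at 18 h. In control, replicate 3 had the lowest sum of the 10 markers, the most Adh1 and the least Lrat. At 18 h, replicate 3 also had the lowest sum and the most Adh1, while Lrat was lowest in replicate 2. This order did not hold at 72 h, where replicate 3 had the highest sum (108000) and the most Adh1. Replicate 2 had the lowest sum there (76800) and the most Lrat. The part of crypt cell content in the changes of Lrat and Adh1 was not tested.

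Non-epithelial markers were examined as well. All 4 tested markers of stromal and endothelial cells had negative log2 fold changes at 18 h, with 0 of 4 called by edgeR and 0 of 4 at an unadjusted p under 0.05. The 9 markers of this kind in the table summed to 140.3 to 149.0 normalised counts in control, 52.43 to 69.36 in 18h-αGal and 75.64 to 109.6 in 72h-αGal. Dcn was at 0 in all mice of both αGalCer groups and in 2 of 3 control mice, and the untested Acta2 and Col3a1 had higher means at 18 h than in control, 8.841 against 3.902 and 4.33 against 3.366. The CD31- and CD45- gates are set to exclude endothelial cells and leukocytes. Pecam1, the gene encoding CD31, was still detected in every mouse. It had 31.13, 47.46 and 38.04 normalised counts in control, 12.61, 12.58 and 20.7 in 18h-αGal and 17.38, 22.19 and 22.81 in 72h-αGal. The part of non-epithelial cells in the fall of Lrat and Adh1 was not tested. The 11 leukocyte markers in the table summed to 1164 to 5380 normalised counts in control, 15150 to 16840 in 18h-αGal and 3608 to 6877 in 72h-αGal, of which Cd74, an antigen presentation gene that interferon gamma also induces in epithelium, held 1033 to 5261, 15020 to 16700 and 3444 to 6651. Adgre1 was at 0 in all control and 72h-αGal mice, Cd3e in all control mice and Cd3g in all 18h-αGal mice, and Ptprc, the pan-leukocyte gene encoding CD45, stayed between 4.415 and 57.92 over all 9 mice. In bulk RNA of this kind, fewer cells of a type and less RNA per cell cannot be told apart.

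**Figure D2:**
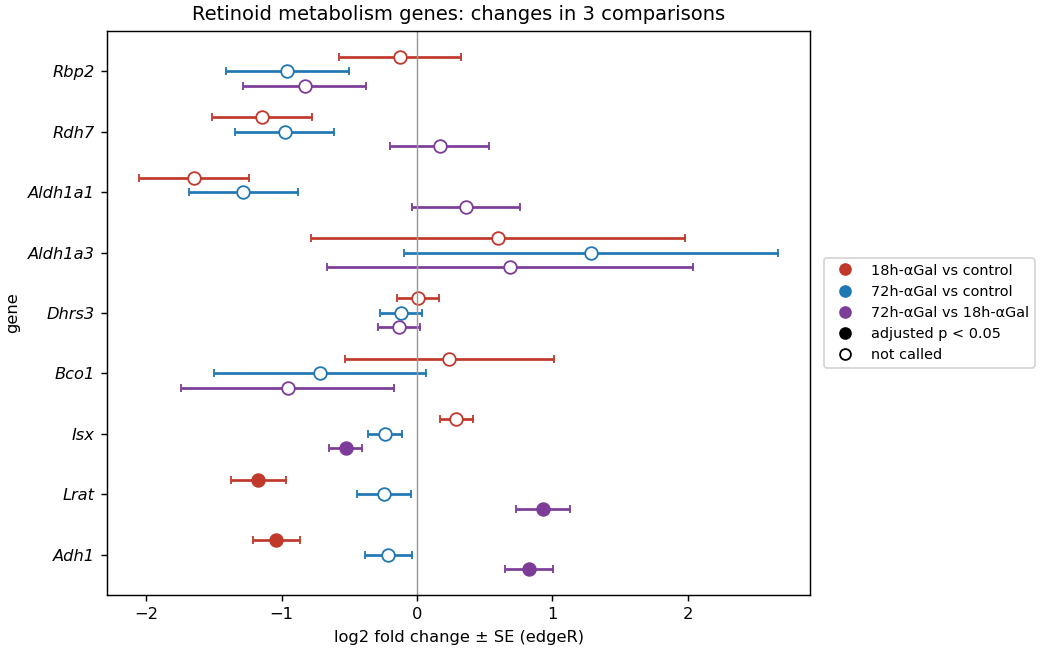
Log2 fold change ± SE (horizontal axis, edgeR) of each gene in 3 comparisons, with filled symbols for an adjusted p under 0.05 and open symbols for genes not called. Lrat and Adh1 are filled to the left of 0 at 18 h against control and to the right of 0 at 72 h against 18 h, Isx is filled at -0.53 at 72 h against 18 h, and the widest error bars belong to Aldh1a3.

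Rbp2 encodes cellular retinol-binding protein 2, the carrier of retinol and retinal inside absorptive enterocytes. The gene (ENSMUSG00000032454) lies on the plus strand of chromosome 9, at 98368121 to 98391834 of GRCm39. Its promoter window (GRCm38.p6, chr9:98490287-98490586, plus strand) is printed because it is 1 of the windows with matches, in capitals: TGACCT, which is AGGTCA on the opposite strand, ending 53 bases before the start, and TTTATA and TATAAA, which are the TATAAA pattern on the opposite and on the same strand.
Rbp2: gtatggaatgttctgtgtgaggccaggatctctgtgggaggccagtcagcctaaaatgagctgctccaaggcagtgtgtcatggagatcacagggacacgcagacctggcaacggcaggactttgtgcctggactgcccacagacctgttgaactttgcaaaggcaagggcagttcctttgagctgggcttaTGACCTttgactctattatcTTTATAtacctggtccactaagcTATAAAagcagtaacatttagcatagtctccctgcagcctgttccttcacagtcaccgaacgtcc

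Rbp2 was the most abundant of the 9 genes per kilobase of exon in all 3 groups. The control mice had 7935, 5151 and 13071 normalised counts, the 18h-αGal mice 6872, 6157 and 10751 and the 72h-αGal mice 4762, 6094 and 2471. The spread within control was larger than the difference from 18h-αGal (log2 fold change -0.13 ± 0.45, adjusted p = 0.916), and without control replicate 3 this difference was 0.28 ± 0.45. At 72 h the mean was 4442 ± 1832 against 8719 ± 4018 in control, and the groups overlapped (-0.96 ± 0.46, adjusted p = 0.863). All 72h-αGal mice lay below all 18h-αGal mice, but this difference was not called either (-0.83 ± 0.45, adjusted p = 0.332).

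Within each group, the level of Rbp2 followed the order of the summed enterocyte markers. That sum was 273300, 186800 and 471300 normalised counts in control replicates 1, 2 and 3. It was 298500, 259900 and 401700 in the 18h-αGal mice and 192200, 236700 and 124700 in the 72h-αGal mice. In each group the mouse with the highest sum also had the most Rbp2, and the mouse with the lowest sum the least. The same held for Rdh7 in each group, with the values given below. The 20 enterocyte markers had a median log2 fold change of -0.004 at 18 h against control, with 1 called lower, Mep1a, and of -0.67 at 72 h against control, with 19 of 20 negative. At 72 h edgeR called 0 of the 20 against control, with 4 at an unadjusted p under 0.05, beside 1125 of all 18933 genes tested. The crypt stem and cycling markers, whose ranges are given above, ran the other way within control, where replicate 3 had the lowest sum. The part of enterocyte content in the levels of Rbp2 and Rdh7 was not tested.

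Bco1 encodes the dioxygenase that cleaves β-carotene centrally to retinal, and Isx encodes the homeodomain protein known to repress Bco1 and the carotenoid receptor gene Scarb1. Both genes are on the plus strand of chromosome 8 of GRCm39, Bco1 (ENSMUSG00000031845) at 117822593 to 117860459 and Isx (ENSMUSG00000031621) at 75599756 to 75620134. The window of Bco1 (GRCm38.p6, chr8:117095615-117095914, plus strand) is shown because it held 2 nuclear receptor half-sites, both as TGACCT and separated by 1 base, the second ending 44 bases before the start. The other capitals are CATAAA, the TTTATG pattern on the opposite strand and TATAAA.
Bco1: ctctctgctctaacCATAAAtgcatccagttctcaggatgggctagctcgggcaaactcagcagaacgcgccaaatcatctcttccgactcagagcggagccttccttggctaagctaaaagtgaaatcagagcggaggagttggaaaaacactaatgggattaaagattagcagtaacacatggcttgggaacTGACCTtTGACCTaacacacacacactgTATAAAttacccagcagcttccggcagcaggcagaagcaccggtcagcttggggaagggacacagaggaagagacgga

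Bco1 was expressed at a low level. The control mice had 72.83, 58.85 and 4.755 normalised counts, the 18h-αGal mice 71.25, 63.78 and 30.36 and the 72h-αGal mice 5.792, 44.38 and 34.59. The low value in control replicate 3, the smallest library, rested on 2 reads, and that in 72h-αGal replicate 1 on 5 reads. The groups overlapped in all comparisons, and Bco1 was not called at 18 h (0.24 ± 0.77, adjusted p = 0.905), at 72 h (-0.72 ± 0.78, adjusted p = 0.948) or between both αGalCer groups (-0.96 ± 0.78, adjusted p = 0.51).

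Isx had some of the tightest replicates of the 9 genes. Control mice had 2140, 2054 and 2328 normalised counts, 18h-αGal mice 2284, 2676 and 2985 and 72h-αGal mice 1922, 1956 and 1609. All 72h-αGal mice were below all mice of both other groups, while control and 18h-αGal overlapped. Isx fell by 30.5% from 18 h to 72 h (log2 fold change -0.53 ± 0.12, adjusted p = 0.0144), from 2648 ± 351.2 to 1829 ± 191.3. This call was lost when 18h-αGal replicate 2 (adjusted p = 0.0583), 18h-αGal replicate 3 (0.0557) or 72h-αGal replicate 3 (0.088) was left out. Neither comparison with control passed the test, with 0.29 ± 0.12 at 18 h (adjusted p = 0.188) and -0.23 ± 0.12 at 72 h (adjusted p = 0.863). The control mean, 2174 ± 139.9, lay between those of the αGalCer groups. The enterocyte marker sums, 259900 to 401700 at 18 h and 124700 to 236700 at 72 h, also did not overlap between these groups, and their part in the fall of Isx was not tested. Scarb1, which imports carotenoids and other lipids, had 257.9, 412.3 and 487.1 normalised counts at 18 h and 174.9, 264.2 and 177.3 at 72 h. It was also called lower at 72 h than at 18 h (-0.90 ± 0.26, adjusted p = 0.0433), although 1 mouse of each group overlapped. The call was made in 11 of 20 alternative settings. In control Scarb1 had 464.6, 348.4 and 342.3, above all 72h-αGal mice. Neither comparison with control was called, with -0.003 ± 0.26 at 18 h (adjusted p = 0.991) and -0.90 ± 0.26 at 72 h (adjusted p = 0.708).

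The remaining genes act on the oxidation state of retinoids. Rdh7 encodes a short-chain dehydrogenase of the microsomal retinol dehydrogenase family. The gene (ENSMUSG00000040134) lies at 127719896 to 127724686 on the minus strand of chromosome 10. Of the 50-base words of its transcripts, 9.198% also occur in other genes, and the pseudogene Rdh18-ps shares the most. Some reads of Rdh7 may therefore have been dropped or assigned elsewhere. This share was 6.704% for Lrat, 6.322% for Aldh1a1 and 3.467% for Adh1, where the gene sharing the most overlaps them on the opposite strand. Rdh7 had 809.9, 689.1 and 1438 normalised counts in control, 361.3, 336.9 and 620.9 in 18h-αGal and 476.1, 691.9 and 300.2 in 72h-αGal. The 18h-αGal mice lay below the control mice, and the 72h-αGal mice overlapped both groups. The difference at 18 h did not pass the test (log2 fold change -1.14 ± 0.37, adjusted p = 0.106), nor did that at 72 h (-0.98 ± 0.37, adjusted p = 0.826). DESeq2 called the 18 h difference (adjusted p = 0.00956), and without control replicate 3 it was -0.78 ± 0.32.

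Dhrs3 encodes a reductase that turns retinal back into retinol and so limits retinoic acid. The gene (ENSMUSG00000066026) is on the plus strand of chromosome 4, at 144619245 to 144654779. The control mice had 1791, 1610 and 1797 normalised counts, the 18h-αGal mice 1315, 1759 and 2148 and the 72h-αGal mice 1606, 1729 and 1398. The groups overlapped in every comparison, with log2 fold changes of 0.011 ± 0.155 at 18 h, -0.12 ± 0.15 at 72 h and -0.13 ± 0.15 between the αGalCer groups. Its mean ± SD was 1733 ± 106.6 in control, 1741 ± 417.1 at 18 h and 1577 ± 167.0 at 72 h.

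Aldh1a1 and Aldh1a3 encode retinal dehydrogenases, which carry out the last step to retinoic acid. Aldh1a1 (ENSMUSG00000053279) lies at 20469539 to 20622825 on the plus strand of chromosome 19 and overlaps C730002L08Rik on the opposite strand. It had 1682, 1103 and 2539 normalised counts in control, 428.8, 492.3 and 771.3 in 18h-αGal and 776.1, 979.3 and 407.7 in 72h-αGal. All mice of both αGalCer groups were below all control mice, and the αGalCer groups overlapped each other. At 18 h the log2 fold change of -1.65 ± 0.40 was the largest in size among the 9 genes and had an adjusted p of 0.0542. It was called in 10 of 20 alternative settings, among them DESeq2 (adjusted p = 1.65e-05), limma and the edgeR fit of control and 18h-αGal only (0.0261), and over all 20 the adjusted p ran from 1.65e-05 to 0.198. At 72 h the difference from control was -1.28 ± 0.40 (adjusted p = 0.81), which DESeq2 called (adjusted p = 0.0339). Control replicate 3 had the highest Aldh1a1, Rdh7 and enterocyte marker sum of the control mice, and without it the 18 h difference of Aldh1a1 was -1.31 ± 0.38. The enterocyte marker sums of control and 18h-αGal overlapped, as given above for Rbp2.

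Aldh1a3 (ENSMUSG00000015134), at 66040638 to 66077850 on the minus strand of chromosome 7, was near the limit of detection. The control mice had 2.349, 15.19 and 0 normalised counts, the 18h-αGal mice 1.261, 18.86 and 8.279 and the 72h-αGal mice 30.12, 12.1 and 3.679. These values rested on 0 to 26 reads per library, and a difference was not detectable at this depth. The log2 fold changes were 0.60 ± 1.38 at 18 h and 1.29 ± 1.38 at 72 h.

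Levels of different genes can be compared only per length, and the following values are normalised counts per kilobase of exon. The length is that of all annotated exons of a gene merged, from 1113 bases for Rbp2 to 10740 for Aldh1a1. Which transcripts these cells used was not determined, so the order holds for this length only. In control the order was Rbp2 (7834 ± 3610), Adh1 (2690 ± 366), Isx (1183 ± 76.1), Dhrs3 (534.0 ± 32.8), Rdh7 (420.9 ± 172.9), Lrat (196.7 ± 39.1), Aldh1a1 (165.2 ± 67.3), Bco1 (11.75 ± 9.29) and Aldh1a3 (1.03 ± 1.44). Of these neighbours, Dhrs3 and Rdh7, Lrat and Aldh1a1, and Bco1 and Aldh1a3 overlapped between mice, and the other neighbouring pairs did not. At 18 h Isx (1441 ± 191) and Adh1 (1305 ± 406) changed places, with values that overlapped, and at 72 h Adh1 (2299 ± 150) was again above Isx (994.9 ± 104.1) without overlap. Lrat and Aldh1a1, which overlapped in control, did not overlap at 72 h, when they stood at 165.5 ± 21.0 and 67.1 ± 27.0. Lrat and Aldh1a1 also overlapped at 18 h, and Rbp2 and Adh1, Rdh7 and Lrat, and Bco1 and Aldh1a3 at 72 h. The other places in the order were the same in the 3 groups.

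At 18 h against control, 2 of the 9 genes were called lower and 0 higher, and 5 of 9 had an unadjusted p under 0.05. Over all 18933 genes tested, 2.69% were called lower and 3.27% higher, and 3947 had an unadjusted p under 0.05. In 4 of 9 genes, Rdh7, Aldh1a1, Lrat and Adh1, the 2 groups did not overlap, and this was so for 23.8% of all genes tested. The median log2 fold change was -0.13 over the 9 genes and -0.03 over all genes tested. Since the genes were chosen with results of these data known, nothing particular to them is read from these shares.

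Between 72h-αGal and control, edgeR called 0 of the 9 genes, 2 of 9 (Rdh7 and Aldh1a1) had an unadjusted p under 0.05, and DESeq2 called 1, Aldh1a1. Among all 18933 genes tested edgeR called 5, or 0.0264%, all of them lower, and 1125 had an unadjusted p under 0.05. Aldh1a1 and Isx did not overlap between the groups, 2 of 9 genes beside 12.7% of all genes. The median log2 fold change was -0.24 over the 9 genes, with 8 of 9 negative, and 0.002 over all genes.

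At 72 h against 18 h, Lrat and Adh1 were called higher and Isx lower, beside 4.18% of all genes called higher and 6.04% called lower. Rbp2, Isx, Lrat and Adh1 did not overlap between the groups, 4 of 9 genes beside 32.8% of all genes. The median of the 9 genes, 0.17 beside 0.046 over all genes, turned negative when 72h-αGal replicate 1 (-0.14) or replicate 2 (-0.16) was left out. The 18h-αGal mice enter both this comparison and that with control, so the fall of Lrat and Adh1 at 18 h and their higher level at 72 h share the same 3 low mice.

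**Figure D3:**
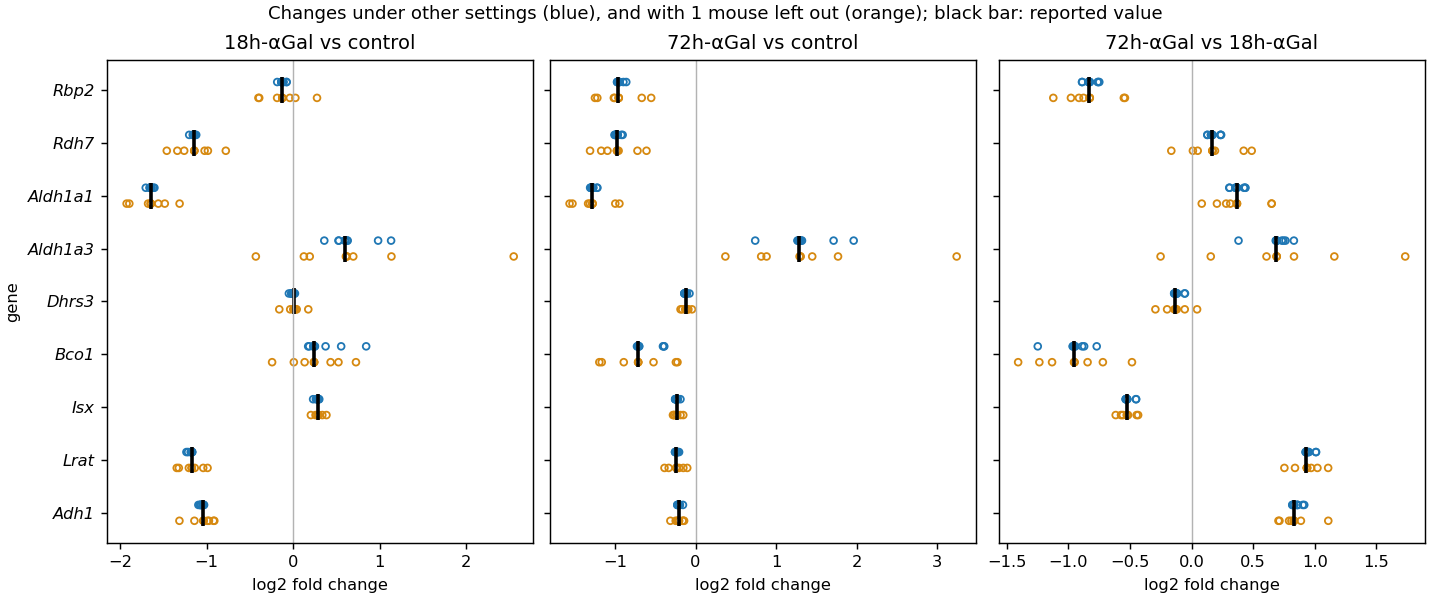
Log2 fold change (horizontal axes) of each gene in 3 comparisons as reported (black bar), under other settings such as another scaling, filter or tool (blue circles) and with 1 mouse left out (orange circles). The circles of Lrat and Adh1 stay left of 0 at 18 h against control, between -1.35 and -0.91, whereas those of Dhrs3, Rbp2, Bco1 and Aldh1a3 lie on both sides of 0 there.

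To place these genes in their pathway, 88 other genes of retinoid handling, response and regulation were examined by role. The table held 84 of them, and 68 were tested. At 18 h, 8 of 68 were called lower and 0 higher, beside 2.69% and 3.27% of all genes, and their median log2 fold change was -0.23 beside -0.03. Between 72h-αGal and control edgeR called 0 of 68, with 11 at an unadjusted p under 0.05, and DESeq2 and limma also called 0. Over all 18933 genes tested, 1125 had an unadjusted p under 0.05 in that comparison. Between the αGalCer groups, 6 were called higher and 3 lower, beside 4.18% and 6.04% of all genes. The count of 8 at 18 h was 5 without control replicate 1 or 2, 18h-αGal replicate 2 or 72h-αGal replicate 1 or 2, 4 without 18h-αGal replicate 1, and 5 with the replicate number as a block. The count of 9 at 72 h against 18 h was 3 to 6 whenever 1 αGalCer mouse was left out. How often each call was kept over the 20 alternative settings is therefore given with the genes.

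Among 10 tested uptake and carrier genes, 1 was called lower at 18 h. This was Cd36, a scavenger receptor for fatty acids and carotenoids, which had 218.5, 165.2 and 359.0 normalised counts in control and 30.27, 32.34 and 68.99 at 18 h (log2 fold change -2.51 ± 0.45, adjusted p = 0.00507, called in 20 of 20 settings). At 72 h Cd36 had 133.2, 208.8 and 73.59, all above the 18h-αGal mice (1.69 ± 0.45, adjusted p = 0.0253, called in 16 of 20). Stra6l, a relative of the retinol-binding protein receptor, had means of 1189 ± 371.1, 634.5 ± 100.5 and 1470 ± 444.2 in control, 18h-αGal and 72h-αGal. It was not called at 18 h (-0.91 ± 0.25, adjusted p = 0.0555, called in 6 of 20) and was called higher at 72 h than at 18 h (1.22 ± 0.25, adjusted p = 0.0101, called in 19 of 20). Scarb1, described above, was the only uptake gene called lower at 72 h against 18 h.

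Among 10 tested genes of retinyl ester handling, 3 were called lower at 18 h. Ces1d and Ces1e encode carboxylesterases that can hydrolyse retinyl esters. Ces1d had 213.2, 197.4 and 123.6 normalised counts in control, 29.0, 21.56 and 15.18 at 18 h and 125.1, 98.84 and 177.3 at 72 h. It was lower at 18 h than in control (-2.99 ± 0.39, adjusted p = 0.000621) and higher at 72 h than at 18 h (2.58 ± 0.39, adjusted p = 0.00123). Ces1e showed the same order of groups, with means of 849.7 ± 137.9, 377.2 ± 124.7 and 872.2 ± 35.2, and was called in both of these comparisons. Both genes were called in 20 of 20 settings in each. The Ces1 genes are close relatives, and how reads shared between them were counted is not given in the sources used here. Retsat, which encodes retinol saturase, was called lower at 18 h (-0.60 ± 0.16, adjusted p = 0.0399, called in 10 of 20), and its 72h-αGal level was not called against either group. Lipe, hormone-sensitive lipase, was called lower at 72 h than at 18 h (-0.74 ± 0.20, adjusted p = 0.0272, called in 16 of 20), with means of 1096 ± 230.6 at 18 h and 651.1 ± 85.8 at 72 h. Its control mean, 908.9 ± 249.6, lay between these. Neither comparison of Lipe with control was called (adjusted p = 0.46 at 18 h and 0.826 at 72 h).

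Of 22 other retinol and retinal oxidoreductase genes tested, 1 was called lower at 18 h and 0 higher. Rdh16, a close relative of Rdh7, had 84.58, 175.6 and 107.0 normalised counts in control, 18.92, 44.91 and 20.7 at 18 h and 37.07, 30.26 and 44.89 at 72 h. All αGalCer mice lay below all control mice. Rdh16 was called at 18 h (-2.11 ± 0.49, adjusted p = 0.0195, called in 17 of 20 settings) and not at 72 h (-1.69 ± 0.48, adjusted p = 0.701). Rdh10, a retinol dehydrogenase of the first oxidation step, had means of 501.0 ± 87.4, 496.1 ± 71.7 and 516.4 ± 68.3 and was named here after its values were seen.

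None of the 4 tested genes of retinoic acid synthesis and clearance was called at 18 h by edgeR. Of the 4, 2 had an unadjusted p under 0.05, beside 3947 of all 18933 genes tested. Aldh1a2 was not analysed here. Cyp2s1, a cytochrome P450 that can act on retinoids, had the lowest unadjusted p of this group (0.0116), with means of 3690 ± 447.6 in control and 2724 ± 644.5 at 18 h (-0.43 ± 0.15, adjusted p = 0.107). It was called in 2 of 20 alternative settings, without a filter on low counts (adjusted p = 0.0435) and without 18h-αGal replicate 3 (0.0148).

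Among 10 tested receptor and co-factor genes, Ncor1, a corepressor of nuclear receptors, and Ppard, a fatty acid receptor gene, were called lower at 18 h. Ncor1 had a mean of 11260 ± 887.6 normalised counts in control and 8387 ± 785.2 at 18 h (-0.42 ± 0.11, adjusted p = 0.0354, called in 11 of 20). Ppard had 9203 ± 590.3 and 6776 ± 524.5 (-0.43 ± 0.12, adjusted p = 0.0497, called in 7 of 20). Rara, the retinoic acid receptor α gene, had 1183, 1231 and 1182 normalised counts at 18 h and 1601, 1724 and 1439 at 72 h, and was called higher at 72 h than at 18 h (0.41 ± 0.12, adjusted p = 0.0371, called in 11 of 20). It had 1527, 1469 and 1429 in control, above all 18h-αGal mice, a difference that was not called (-0.29 ± 0.12, adjusted p = 0.162).

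Of 9 tested genes known as targets of retinoic acid, 1 was called lower at 18 h and 0 higher. This was Cd38, an NAD-consuming ectoenzyme gene, with 2968, 3114 and 2912 normalised counts in control, 2022, 1746 and 2034 at 18 h and 2690, 2702 and 2425 at 72 h. Its log2 fold change was -0.63 ± 0.11 at 18 h (adjusted p = 0.00414, called in 20 of 20) and 0.44 ± 0.11 at 72 h against 18 h (adjusted p = 0.0195, called in 17 of 20). The classical targets Cyp26a1 and Rarb were too low to be tested, with at most 5.695 and 16.45 normalised counts in any mouse.

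Of 7 tested regulators of intestinal retinoid genes, edgeR called 0 at 18 h, with 1 at an unadjusted p under 0.05, and DESeq2 and limma also called 0. Gata6, a transcription factor gene of the intestinal epithelium, had the lowest unadjusted p of this group at 18 h (0.044), with means of 4044 ± 166.3 in control and 3411 ± 370.9 (-0.24 ± 0.11, adjusted p = 0.223). Hnf4g had means of 9272 ± 1850 at 18 h and 5749 ± 414.1 at 72 h and was called lower in the later group (-0.68 ± 0.19, adjusted p = 0.043, called in 11 of 20). Its control mean, 8035 ± 2547, lay between these, and neither comparison with control was called (adjusted p = 0.586 at 18 h and 0.826 at 72 h). The enterocyte marker sums, given with Isx, did not overlap between the αGalCer groups, and their part in the lower Lipe and Hnf4g was not tested. Cdx2, a homeodomain factor of intestinal identity, was not called in any comparison and had means of 4330 ± 675.1, 3657 ± 271.7 and 4638 ± 417.7 in control, 18h-αGal and 72h-αGal.

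**Figure D4:**
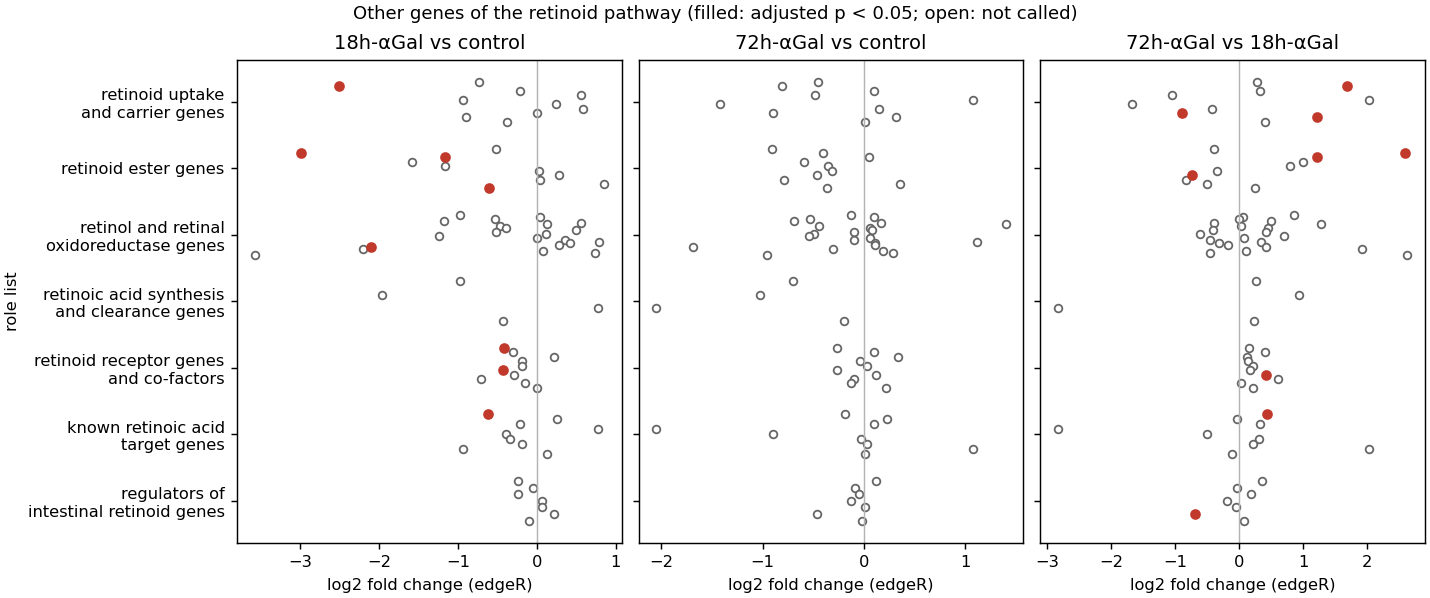
Log2 fold change (horizontal axes, edgeR) of the other retinoid pathway genes tested, by role list (vertical axis), in 3 comparisons. Each circle is 1 gene, filled where the adjusted p was under 0.05, and genes in several lists appear in each. At 18 h all 8 called genes lie left of 0, at 72 h against control no circle is filled, and at 72 h against 18 h 6 called genes lie right and 3 left of 0.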

How the data were processed

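RNA sequencing libraries of 9 mice, 3 per group, were analysed. The authors prepared ribosomal RNA-depleted, directional libraries and mapped the reads with HISAT2. The study's methods name the build GRCm39, whereas the submitters' processing notes name GRCm38 and mm10, featureCounts, Subread and DESeq2 1.42.0. The annotation release and strand setting are not given in the sources used here, so antisense partners may have exchanged reads. The authors deposited raw counts per gene and a normalised signal, the raw count over 1 factor per library, called normalised count here. This division corrects neither for gene length nor for GC content.

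Of 29288 genes, 28480 matched GENCODE vM39 (GRCm39), the source of symbols, 1-based positions and exon lengths, and 808 did not. Promoter windows came from RefSeq (GRCm38.p6). Raw counts were tested with edgeR 4.0.16 in R 4.3.3 (filterByExpr, TMM scaling, 1 robust quasi-likelihood fit of all 9 libraries, common dispersion 0.123). Benjamini-Hochberg adjustment ran over 18933 genes, and SEs were derived from the F statistic. Alternatives were other scalings and filters, DESeq2 1.42.0, limma-trend 3.58.1 on log2 values with pseudocounts of 1 and 8, a non-robust fit, fits of 2 groups only, a replicate block and leaving out each mouse. The procedure was tested on simulated data. Total counts ran from 8887861 to 32722293, and floors of 3 counts cover counting error only.

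The genes and lists were chosen with earlier results of these data known. Genes named are the 9 members, listed pathway genes called in any comparison, the pathway gene with the lowest p at 18 h in each role list, and for each member called at 18 h the 2 genes with the most similar pattern. Cdx2, Rdh10, Cyp26a1, Rarb and single marker genes were named outside this rule. One listed pathway gene is not reported here and was left out of the list. Replicates of a group differed beyond sampling noise.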

Additional observations from a re-analysis of the deposited data

Results flagged for a closer look

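For 12 genes the effect at 18 h and that at 72 h differed in the direct contrast of both αGalCer groups, tested by edgeR with an adjusted p under 0.05. The log2 fold changes of 72h-αGal against 18h-αGal among the retinoid metabolism genes were -0.53 for Isx, 0.93 for Lrat and 0.83 for Adh1. Among the other retinoid pathway genes they were 1.69 for Cd36, 2.58 for Ces1d, 1.22 for Ces1e, 1.22 for Stra6l, 0.44 for Cd38 and 0.41 for Rara, and -0.74 for Lipe, -0.68 for Hnf4g and -0.90 for Scarb1. Each contrast compares 3 mice with 3 mice, and without controls at 72 h the time since αGalCer and the time of sampling cannot be told apart.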

How the results depend on the processing

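Lrat and Adh1 were called under all 20 alternatives at 18 h against control, with adjusted p between 2.28e-06 and 0.03 and between 5.58e-06 and 0.0264, and at 72 h against 18 h. At 18 h, 4 of 9 genes were called with total counts only and 4 with DESeq2, instead of 2, and 2 to 3 with 1 mouse left out. The median of the 9 genes at 18 h was -0.59 with 2 groups only, where Aldh1a3 was not tested and the median is over the other 8 genes, and -0.43 to -0.039 with 1 mouse left out. At 72 h against control DESeq2 called 1 gene instead of 0, and the median ran from -0.39 to -0.22 with 1 mouse left out. At 72 h against 18 h it ran from -0.16 to 0.49, negative without 72h-αGal replicate 1 or 2, and 2 to 3 genes were called. Over all single genes followed, 77 values under an alternative lost a call and 21 gained 1, with no change of direction among called genes. Of the pathway list, 5 genes instead of 8 were called at 18 h with 2 groups only, 5 with the replicate block and 4 to 10 with 1 mouse left out, and 3 to 13 instead of 9 at 72 h against 18 h. The 18 h difference of Dhrs3 turned negative with upper-quartile scaling (-0.05), total counts only (-0.022), limma with either pseudocount (-0.02 and -0.02) and the replicate block (-0.003), and ran from -0.16 to 0.17 with 1 mouse left out. With 1 mouse left out, 18 h differences ran from -0.40 to 0.28 for Rbp2, -0.43 to 2.55 for Aldh1a3 and -0.24 to 0.73 for Bco1, and differences of 72 h against 18 h from -0.16 to 0.49 for Rdh7, -0.25 to 1.73 for Aldh1a3 and -0.29 to 0.045 for Dhrs3. The cause of these changes was not tested. Over all genes, calls at 18 h were 1657 with DESeq2, 1066 with total counts only and 593 with 2 groups only, instead of 1128. Calls at 72 h against control were 30 with DESeq2, 13 without a filter and 1 with the replicate block, instead of 5. Upper-quartile scaling and total counts only moved the median of all genes at 72 h against 18 h to 0.12.

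Replicate numbers recur across groups, but the mice differ. The deviations of same-numbered libraries correlated at -0.15 to 0.115, and a library correlated best with its own number in 5 of 18 cases, so the numbers were not taken as pairs. With the replicate block, 2 of the 9 genes were called at 18 h, 0 at 72 h and 3 between the αGalCer groups, as without it. Of the pathway genes, Ncor1 (adjusted p = 0.0796), Ppard (0.102) and Retsat (0.0531) at 18 h, and Rara (0.0655) and Scarb1 (0.0744) at 72 h against 18 h, were not called with the block.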

Other observations

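For Lrat and Adh1, the genes with the most similar pattern over the 9 libraries are given as a description, by Pearson's r of log2 CPM; these points share the 3 groups. For Lrat they were Acss2 (r = 0.981), an acetyl-CoA synthetase gene, and Akr1c14 (r = 0.971), an aldo-keto reductase gene. Acss2 had means of 1494 ± 192.0, 995.2 ± 82.1 and 1370.0 ± 111.1 normalised counts in control, 18h-αGal and 72h-αGal. For Adh1 they were Gm40893 (r = 0.984) and the mitochondrial carrier gene Slc25a36 (r = 0.979), which had 2664 ± 89.2, 1467 ± 285.8 and 2295 ± 248.5 normalised counts. Gm40893 was low, with 28.76 ± 12.87, 2.76 ± 4.78 and 22.39 ± 9.46 normalised counts. Its mean at 18 h lay within the range of the floors of 3 counts, 1.76 to 7.13.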
